A study of Bombyx mori with 8 samples.

Results

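G-quadruplex (G4) peaks on the short unplaced sequences of the silkworm (Bombyx mori) genome assembly are described here across larval brain and fat body. They are the peaks on numbered assembly sequences from 29 upwards, which leaves out the 28 long sequences and the mitochondrial genome. The rule used only the sequence a peak lies on. It found 456 of 55134 peaks, with 39 of 6759 in brain replicate 1, 397 of 33925 in brain replicate 2, 14 of 8556 in fat body replicate 1 and 6 of 5894 in fat body replicate 2. These peaks lay on 169 short sequences, whose numbers ran from 29 to 692. No gene, repeat or sequence annotation of this assembly was used here, so regions are given by sequence number and 1-based coordinates.

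A G4 is a 4-stranded DNA structure that guanine-rich sequence can fold into, held by stacked layers of guanines. CUT&Tag reads out such structures with a G4-binding antibody, here labelled as the fragment BG4, to which a Tn5 transposase is brought so that it inserts sequencing adaptors where the antibody sits. Unplaced sequences are pieces of an assembly that could not be assigned to a chromosome, often because they hold repeats or lie beside them. Reads from a repeat can align to several places.

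There were 2 libraries of brain and 2 of fat body, an insect organ that stores fat and runs much of the intermediary metabolism. All 4 libraries were labelled wild type, strain P50, stage code L5D3 and BG4. Separate animals are not stated for replicates, and p-values then measure only the spread between these libraries, which may be technical. Libraries of IgG, of brain at stage code P0 and of BmN cells (an ovarian line, 2 libraries) are labelled too but were not analysed here. The deposited peak names differ from the labels, which touches each comparison below. Names in both fat body lists carry 1H6, another G4 antibody, in place of BG4, and those of brain replicate 2 name no antibody. Only those of brain replicate 2 carry the texts q20 and rm-dup. These may stand for a quality limit and for removed duplicates, but their meaning is not stated. Antibody, any difference in read filtering and tissue therefore cannot be told apart.

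The lists differed in how much of them fell on short sequences. These peaks made up 0.577% and 1.17% of brain replicates 1 and 2, against 0.164% and 0.102% of fat body replicates 1 and 2. Both brain lists were higher than both fat body lists. The mean share was 0.874% ± 0.419 in brain and 0.133% ± 0.0437 in fat body (SD, n = 2 each), a difference of 0.741 percentage points. The exact two-sided permutation test gave p = 0.33, the smallest that 2 against 2 libraries allow. Without brain replicate 2 the difference was 0.444 points.

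**Figure D1:**
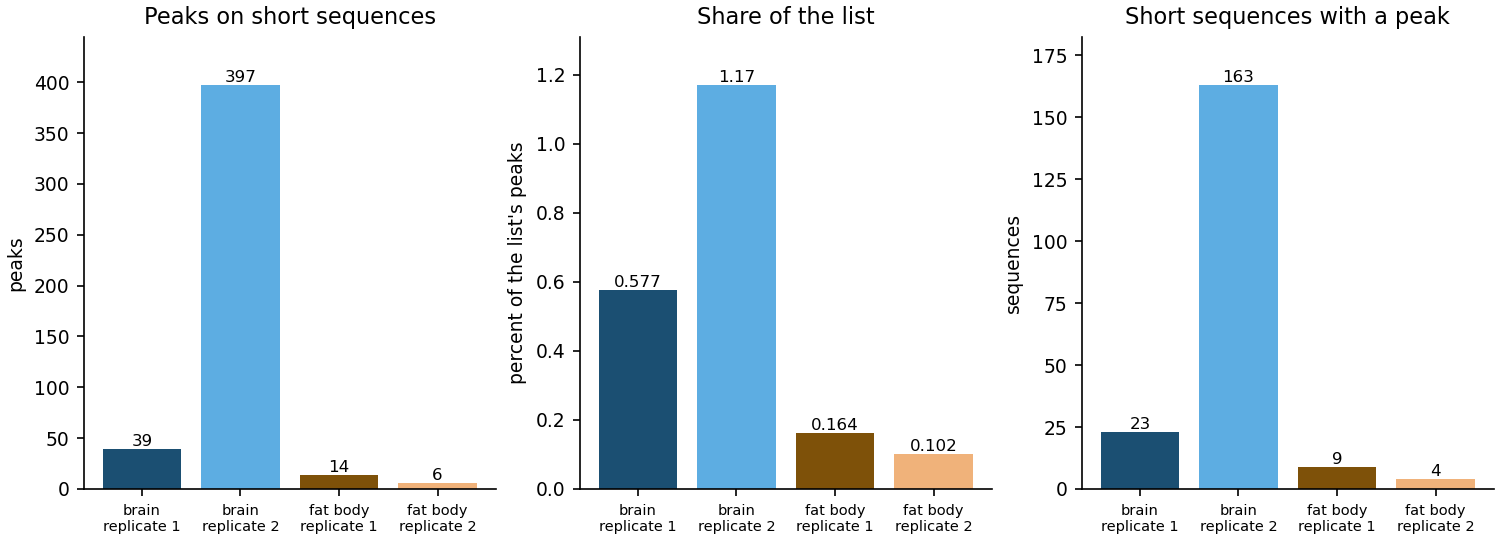
Peaks on short sequences, their percentage of each list and the number of short sequences with a peak, 1 bar per library. Brain replicate 2 stands above the rest in all 3 panels with 397 peaks on 163 sequences, and both brain bars exceed both fat body bars.

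Brain replicate 2 hit most of the short sequences seen in any list. It had peaks on 163 of the 169, against 23 in brain replicate 1, 9 in fat body replicate 1 and 4 in fat body replicate 2. It was alone on 143 sequences, and brain replicate 1 was alone on 6. Both brain lists and no fat body list hit 11 sequences. All sequences with a fat body peak also had a peak of brain replicate 2: 4 were hit in all 4 lists, 2 in all but fat body replicate 2, and 3 in brain replicate 2 and fat body replicate 1. The 4 sequences hit in all 4 lists were 35, 43, 58 and 216.

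Most sequences carried few peaks. In brain replicate 2, 83 sequences held 1 peak, 41 held 2 and 39 held 3 or more, a mean of 2.44. The other lists had means of 1.70 in brain replicate 1, 1.56 in fat body replicate 1 and 1.5 in fat body replicate 2. Sequence 29 held 25 peaks of brain replicate 2, followed by 15 on sequence 34, 12 each on sequences 30 and 39, and 10 on sequence 31. The 10 sequences with most peaks held 118 of the 397 (29.7%). Sequences 29, 34, 30, 39 and 31 were also long, with their last peak in any list ending at 287, 132, 201, 112 and 154 kb. The median of this end over the 169 sequences was 15.5 kb. Counts per sequence were not set against length, so they do not show that peaks gather on these sequences. In brain replicate 1, sequence 29 held 5 peaks, sequence 43 held 4, sequence 38 held 3, and sequences 40 and 44 held 2. In fat body replicate 1, sequence 29 held 3 peaks and sequences 43, 58 and 64 held 2 each, with 1 on sequence 35. In fat body replicate 2, sequence 43 held 3 peaks and sequences 35, 58 and 216 held 1 each.

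Sequence lengths were not used here, so the span of a sequence was taken as the largest peak end on it in any list. Spans ran from 0.378 to 287 kb with a median of 15.5 kb and came to 4710 kb in all. This was 1.05% of the span of all numbered sequences with a peak in any list. The 28 long sequences spanned 8319 to 21455 kb each. Over the short sequences each list hit, peaks covered 1.46% and 6.37% of the span in brain replicates 1 and 2 and 1.13% and 1.10% in fat body replicates 1 and 2. On the long sequences the shares were 0.850%, 3.93%, 1.16% and 0.766% in the same order. A sequence enters this share only if it has a peak, and its span ends at a peak, which raises the share. Over all 169 short sequences, the shares were 0.440%, 6.18%, 0.180% and 0.0657%. On that common span brain replicate 2 was above its own long-sequence share and the other 3 lists were below theirs. Per Mb, brain replicate 2 had 84.3 peaks on short and 75.5 on long sequences. Brain replicate 1 had 8.28 and 15.1, fat body replicate 1 had 2.97 and 19.2, and fat body replicate 2 had 1.27 and 13.3. The 169 sequences were mostly found through brain replicate 2, so the choice of span favours its own density. Short sequences with no peak in any list are left out, and counting them would lower all 4 densities.

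The authors' fold enrichment is the height of a peak's summit over the peak caller's local background. Its median on short sequences was 5.87 in brain replicate 1, 11.97 in brain replicate 2, 5.74 in fat body replicate 1 and 6.60 in fat body replicate 2. On long sequences the medians were 5.14, 5.14, 5.03 and 6.81 in the same order. Short sequences were thus higher in 3 of 4 lists, by 0.73, 6.83 and 0.72, and the difference was -0.20 in fat body replicate 2. The mean difference was 2.02 ± 3.24 (SD, n = 4), smaller than the spread between lists. The exact two-sided sign-flip permutation test over the 4 lists gave p = 0.25, or 0.33 after Benjamini-Hochberg adjustment over 4 measures, where the smallest unadjusted p it allows is 0.13. Without brain replicate 2 the mean difference was 0.416.

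In brain replicate 2 the short-sequence peaks sat at the top of the list by fold. When the list was split by fold into 10 equal parts (deciles), 201 of the 397 (50.6%) fell in the top decile, which holds 10% of all its peaks and starts at a fold of 11.9. Only 57 (14.4%) were among the lower 5 deciles. In brain replicate 1, 10 of 39 (25.6%) were in the top decile by fold, beside 9.99% of all its peaks. Fat body replicates 1 and 2 had 2 of 14 and 1 of 6 there, beside 9.99% of all peaks in each. With so few fat body peaks no pattern can be read from their shares.

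**Figure D2:**
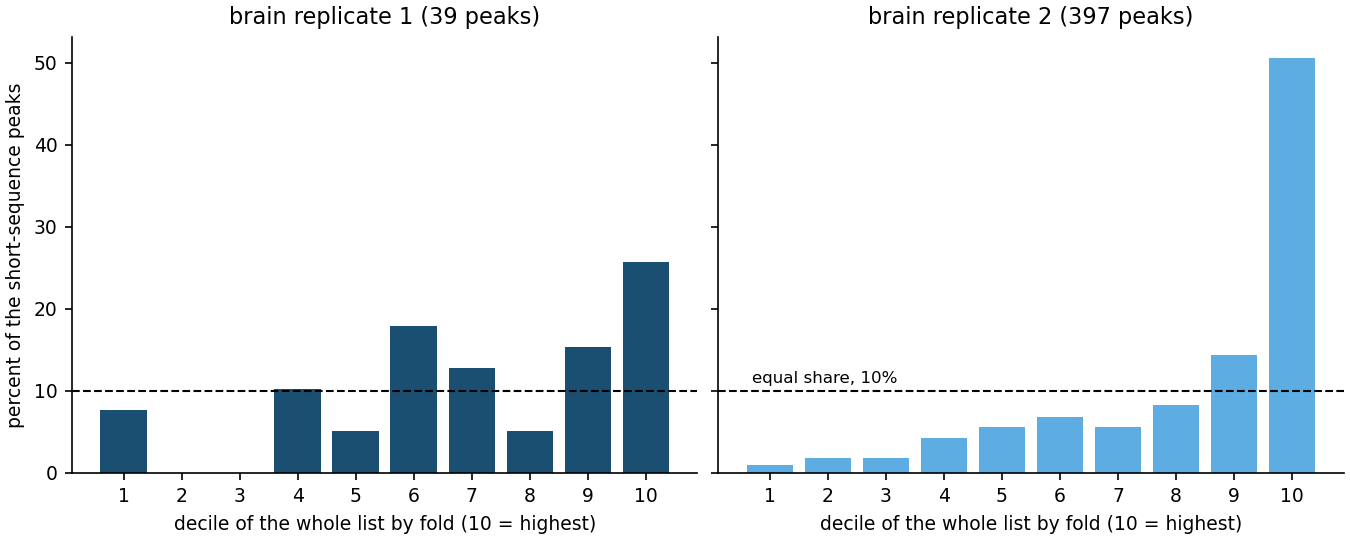
Percentage of the short-sequence peaks of brain replicates 1 and 2 in each decile of the whole list by fold, lowest to highest, with a dashed line at an equal share of 10%. The last bar reaches 50.6% in brain replicate 2 and 25.6% in brain replicate 1.

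Fold joins 2 quantities, and they were separated here. The summit pileup (fragments over the summit) and the local background were worked out from the fold and the p of each peak. The pileup was taken to be a whole number. Median pileups on short sequences were 30 and 48 fragments in brain replicates 1 and 2 and 47.5 and 53 in fat body replicates 1 and 2. Long-sequence peaks had 49, 66, 58 and 43 in the same order. Summits on short sequences were thus lower than on long ones in both brain lists and fat body replicate 1, and higher in fat body replicate 2. The mean difference was -9.38 ± 13.5 fragments (SD, n = 4; exact sign-flip permutation p = 0.25, adjusted 0.33).

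The local background was lower on short sequences in all 4 lists. Its medians were 2.68 and 2.43 fragments in brain replicates 1 and 2 and 6.66 and 4.63 in fat body replicates 1 and 2, against 9.07, 12.2, 9.92 and 5.42 on long sequences. The mean difference was -5.05 ± 3.89 fragments (SD, n = 4), larger than its spread, with an exact sign-flip permutation p = 0.13, the smallest that 4 lists allow, and 0.33 adjusted. Each list has a lowest background, its floor, at 1.04, 1.76, 5.81 and 3.32 fragments in the same order. In brain replicate 2, 168 short-sequence peaks (42.3%) stood on that floor, beside 1.11% of all its peaks. In brain replicate 1, 10 of 39 (25.6%) did, beside 0.385%. In fat body the counts were 3 of 14 and 3 of 6, beside 14.2% and 13.8%.

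**Figure D3:**
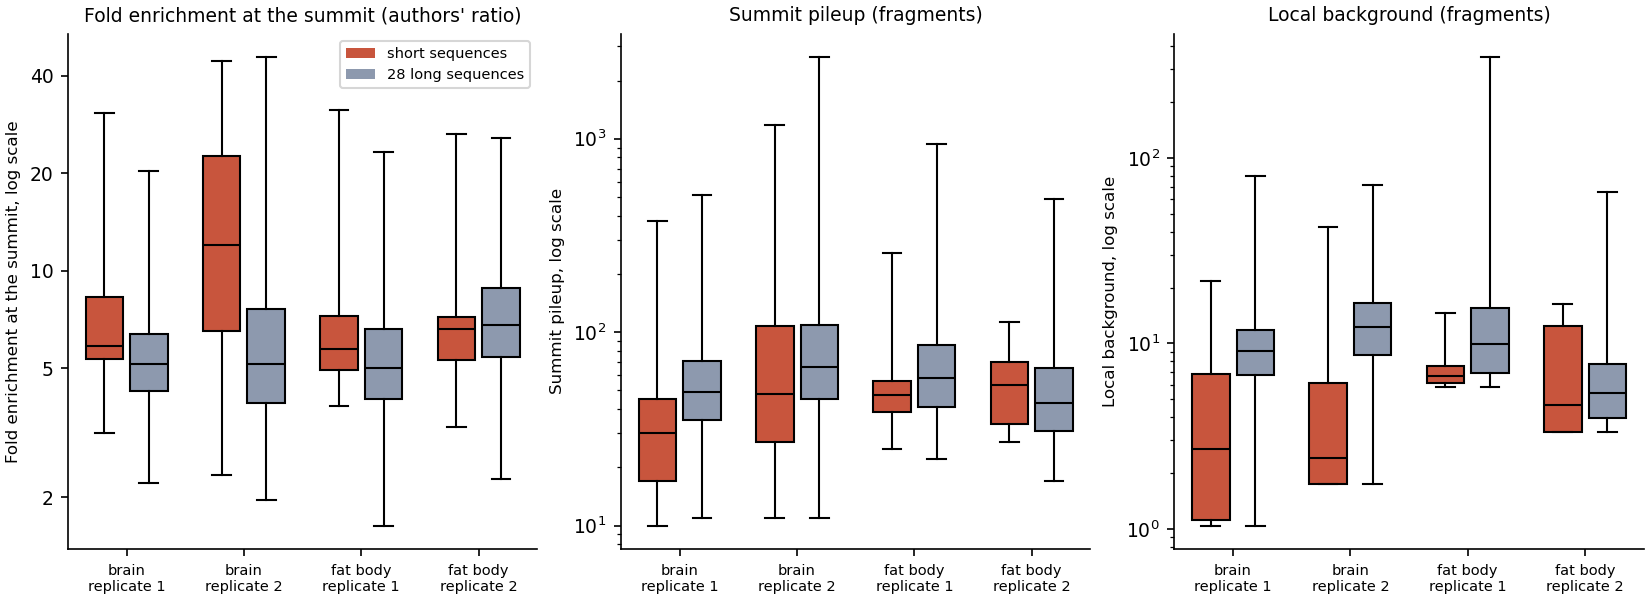
Fold enrichment, summit pileup and local background (log axes) of peaks on short (red, left of each pair) and the 28 long sequences (grey), by library. Boxes span the quartiles with a line at the median, and whiskers reach the lowest and highest peak. The short-sequence fold box of brain replicate 2 stands highest, while its background box lies far below that of the long sequences.

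The high folds of brain replicate 2 were not limited to peaks on the floor. Its 168 peaks on the floor had a median fold of 10.3 and a median pileup of 27.5 fragments. The 229 above the floor had a median fold of 15.5 and a median pileup of 96 fragments, where long-sequence peaks above the floor had 5.13 and 66. By pileup alone, 58 of the 397 (14.6%) reached the highest decile of pileup, beside 10.1% of all its peaks. When the background of every peak was raised to at least 5.81 fragments, the highest of the 4 floors, the median fold of the short-sequence peaks was 6.06 against 4.98 on long sequences, and 120 (30.2%) were in the top decile by fold. In brain replicate 1 the same step left a median of 4.11 against 4.85 and 2 peaks in that decile, and in fat body replicate 2 a median of 4.59 against 5.73. Fat body replicate 1 sets that floor and kept its 5.74 against 5.03. The mean difference over the 4 lists was then -0.02 (exact sign-flip permutation p = 0.875), with 2 lists above 0 and 2 below. Neither the split at the floor nor the raised value makes backgrounds on short and long sequences equal. In brain replicate 2 the lower quartile of background on long sequences was 8.64 fragments, above the raised value of 5.81. Whether folds differ at equal background was not tested.

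Widths went one way in brain replicate 2 and the other way in the remaining lists. On short sequences the median peak was 444 bp wide in brain replicate 1, 683 bp in brain replicate 2, 472 bp in fat body replicate 1 and 464.5 bp in fat body replicate 2. Long-sequence peaks had medians of 495, 403, 520 and 516 bp in the same order. Short-sequence peaks were thus wider by 280 bp in brain replicate 2, while the differences were -51, -48 and -51.5 bp in the other lists. The mean difference was 32.4 ± 165 bp (SD, n = 4; exact sign-flip permutation p = 1). In brain replicate 2, short-sequence peaks in the top decile by fold had a median width of 852 bp against 831 bp for long-sequence peaks there. In the other deciles the medians were 545 bp on short and 375 bp on long sequences. With long-sequence peaks weighted to the same deciles of fold, the width difference was -102 and -1 bp in brain replicates 1 and 2, and -77 and -29.5 bp in fat body replicates 1 and 2 (exact sign-flip permutation p = 0.13).

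In brain replicate 2, median fold was higher on the shorter spans. The 58 peaks on sequences spanning under 10 kb had a median fold of 17.2, the 84 on spans of 10 to 20 kb one of 14.1, the 80 on spans of 20 to 50 kb one of 10.3, and the 175 on spans of 50 kb or more one of 10.6. Median pileups in the same order were 58.5, 44, 37.5 and 53 fragments, which follow no such order. Median backgrounds were 1.81, 1.76, 2.31 and 3.95 fragments. Peaks covered 15.8%, 8.17%, 5.84% and 4.59% of the span in these classes. This last series is set in part by the rule for the span, since a sequence with 1 peak has a span that ends at that peak. On the smallest, a span of 378 bp, the single peak covered 96.6%. The span classes themselves also rest on peak ends and not on sequence lengths. In brain replicate 1 the median folds were 14.2, 6.79, 6.42 and 5.57 in the same order, on 1, 9, 7 and 22 peaks. The fat body lists had no peak on spans under 10 kb. From 10 to 20 kb upwards their medians were 17.6, 6.05 and 5.37 in replicate 1, on 2, 5 and 7 peaks. They were 26.4, 6.49 and 5.81 in replicate 2, on 1, 1 and 4 peaks.

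**Figure D4:**
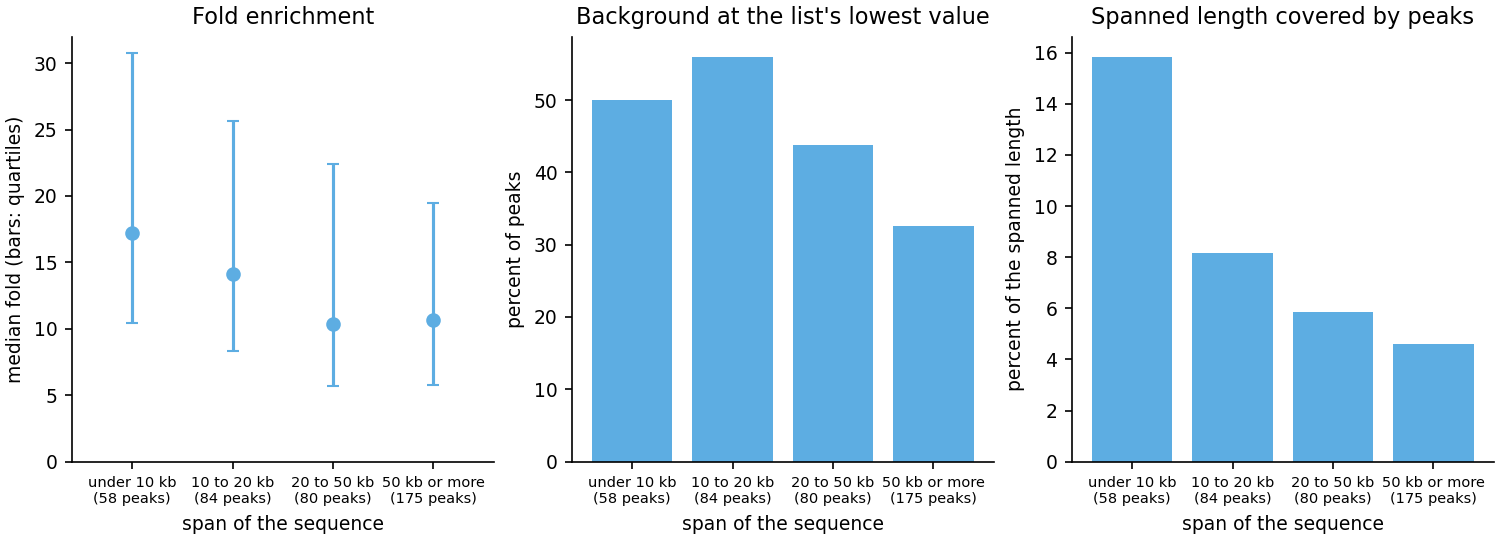
Brain replicate 2 peaks by the span of their sequence: median fold with quartile bars, percentage of peaks whose background is at the lowest value of the list, and percentage of the spanned length covered. Median fold is 17.2 under 10 kb, 10.3 at 20 to 50 kb and 10.6 at 50 kb or more, and coverage is 15.8% in the lowest class and 4.59% in the highest.

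In both brain lists, the share of short-sequence peaks that another list also called was below that of the whole list. In brain replicate 1, 19 of 39 (48.7%) overlapped a peak of any other list by at least 1 bp, beside 79.5% of all its peaks. In brain replicate 2, 18 of 397 (4.53%) did, beside 16.7%. In fat body replicate 1 it was 8 of 14 (57.1%), beside 61.6%, and in fat body replicate 2 it was 6 of 6, beside 83.7%. The shares were not tested, since peaks of a list are not replicates.

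Overlap between the brain replicates was also below that of the whole lists. Brain replicate 2 overlapped 16 of 39 peaks of brain replicate 1 (41.0%), beside 60.2% of the whole list, although it had peaks on 17 of the 23 sequences concerned. In the other direction, brain replicate 1 overlapped 17 of 397 (4.28%), beside 12.5%. Of these 397 peaks, 301 lay on sequences with no brain replicate 1 peak at all. Fat body replicate 2 overlapped 5 of 14 fat body replicate 1 peaks, beside 48.7%, and fat body replicate 1 overlapped 5 of 6 in the other direction, beside 70.5%. Brain replicate 2 overlapped 4 of 14 and 3 of 6 fat body peaks, beside 33.8% and 43.2%.

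The brain replicate 2 peaks that no other list called had the higher median fold, but a lower median pileup and background. The 379 without a partner had a median fold of 12.4, width of 705 bp, pileup of 46 fragments and background of 2.36 fragments. The 18 with a partner had a median fold of 6.19, width of 403 bp, pileup of 64.5 fragments and background of 6.93 fragments. On long sequences the median fold was 5.05 without a partner and 5.50 with one. Of the 201 in the top decile, 5 (2.49%) overlapped another list, where 4.95% of long-sequence peaks in the top decile did. In the other deciles the shares were 6.63% on short and 18.1% on long sequences. The highest folds on short sequences were 44.3 on sequence 94 at 16637 to 18247, 43.6 on sequence 132 at 14902 to 15914 and 43.4 on sequence 557 at 11052 to 12585. Their summit pileups were 769, 729 and 564 fragments. The widest peaks were 2828 bp on sequence 86, from 13492 to 16319, and 2808 bp on sequence 30, from 43195 to 46002. None of these 5 overlapped another list.

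Brain replicate 1 also had strong peaks of its own. Its peak on sequence 189 at 18697 to 20034 had a fold of 21.4, a summit pileup of 128 fragments and, at 1338 bp, the greatest width among its short-sequence peaks. Its peak on sequence 123 at 20714 to 21505 had a fold of 19.1 and a pileup of 43 over a background of 1.30 fragments. Brain replicate 2 had no peak on either sequence.

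Merging the peaks of the 4 lists wherever they overlapped gave 426 regions on short sequences. Of these, 379 (89.0%) were called in brain replicate 2 alone, beside 67.4% of all merged regions. Both brain lists and no fat body list called 12 regions (2.82%), beside 4.79%. Both fat body lists and no brain list called 1 region (0.235%), beside 3.02%. All 4 lists called 2 regions (0.469%), beside 3.68%. A further 4 regions were called in 3 lists, and 21 regions on 14 sequences were called in at least 2.

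The region on sequence 216 from 15442 to 16152 was called in all 4 lists. Its folds were 30.8 and 29.7 in brain replicates 1 and 2 and 31.3 and 26.4 in fat body replicates 1 and 2. The summits lay at 15780 in 3 lists and at 15784 in brain replicate 2, so the 4 lists placed it within 4 bp. The pileup was 377 fragments over a background of 11.3 in brain replicate 1 and 82 over 1.80 in brain replicate 2. It was 258 over 7.28 in fat body replicate 1 and 113 over 3.32 in fat body replicate 2. In brain replicate 1 and both fat body lists it had the highest fold of all short-sequence peaks. The call was 233 bp wide in brain replicate 2, narrower than the 711 bp of brain replicate 1 and the 418 and 384 bp of fat body replicates 1 and 2.

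Sequence 43 carried the other region called in all 4 lists, from 23520 to 24493, with folds of 4.85 and 5.77 in the brain lists, replicate 1 first, and 6.77 and 7.34 in the fat body lists. Backgrounds here were 13.4 and 18.1 fragments in the brain lists, with 6.83 and 5.95 in the fat body lists, and the summits spread over 345 bp. The same sequence held a region at 54197 to 55212 called in both brain lists and fat body replicate 2, with folds of 3.36, 3.57 and 3.29. Brain replicate 2 had 2 peaks in this region, and the other one, at 54879 to 55175, had a fold of 2.96. Sequence 43 also held the only region that both fat body lists and neither brain list called, at 58664 to 59174. That region had folds of 4.95 and 4.91 and pileups of 76 and 75 fragments in fat body replicates 1 and 2. The nearest brain peak lay 3451 bp away. Sequence 43 was thus called in all lists at lower fold than the region on sequence 216.

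On sequences 35 and 58 the 3 lists other than brain replicate 2 called the same places. The region at 21233 to 22517 of sequence 35 had a fold of 9.73 in brain replicate 1, and of 13.5 and 6.72 in fat body replicates 1 and 2. Brain replicate 2 had 8 peaks on that sequence, of which the nearest lay 8938 bp away. The region at 37887 to 38406 of sequence 58 had folds of 6.42 in brain replicate 1 and 5.44 and 6.49 in fat body replicates 1 and 2, with summits within 4 bp. The nearest of 3 brain replicate 2 peaks there lay 3423 bp away and had a fold of 39.7. A region of sequence 38 from 50568 to 51293 was called in both brain lists and fat body replicate 1, with folds of 5.42, 6.59 and 7.45.

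Of the 12 regions called in both brain lists and no fat body list, the first by smaller fold lay on sequence 216 at 7622 to 8163, with folds of 18.8 and 15.6, pileups of 40 and 42 fragments and summits 5 bp apart in brain replicates 1 and 2. Sequence 121 at 23615 to 23967 followed, with folds of 15.7 and 14.4, pileups of 44 and 41 and summits 9 bp apart. The next was a region of sequence 29 from 151777 to 152261, where folds were 8.89 and 8.73. A region of sequence 96 from 19240 to 19655 had folds of 6.79 and 12.7, and one of sequence 30 from 155705 to 156176 had 7.34 and 5.80. Backgrounds at these 5 regions were between 1.04 and 2.89 fragments in both brain lists, where the long-sequence medians were 9.07 and 12.2. Whether fat body lacks signal there was not tested, since the lists hold called peaks only.

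**Figure D5:**
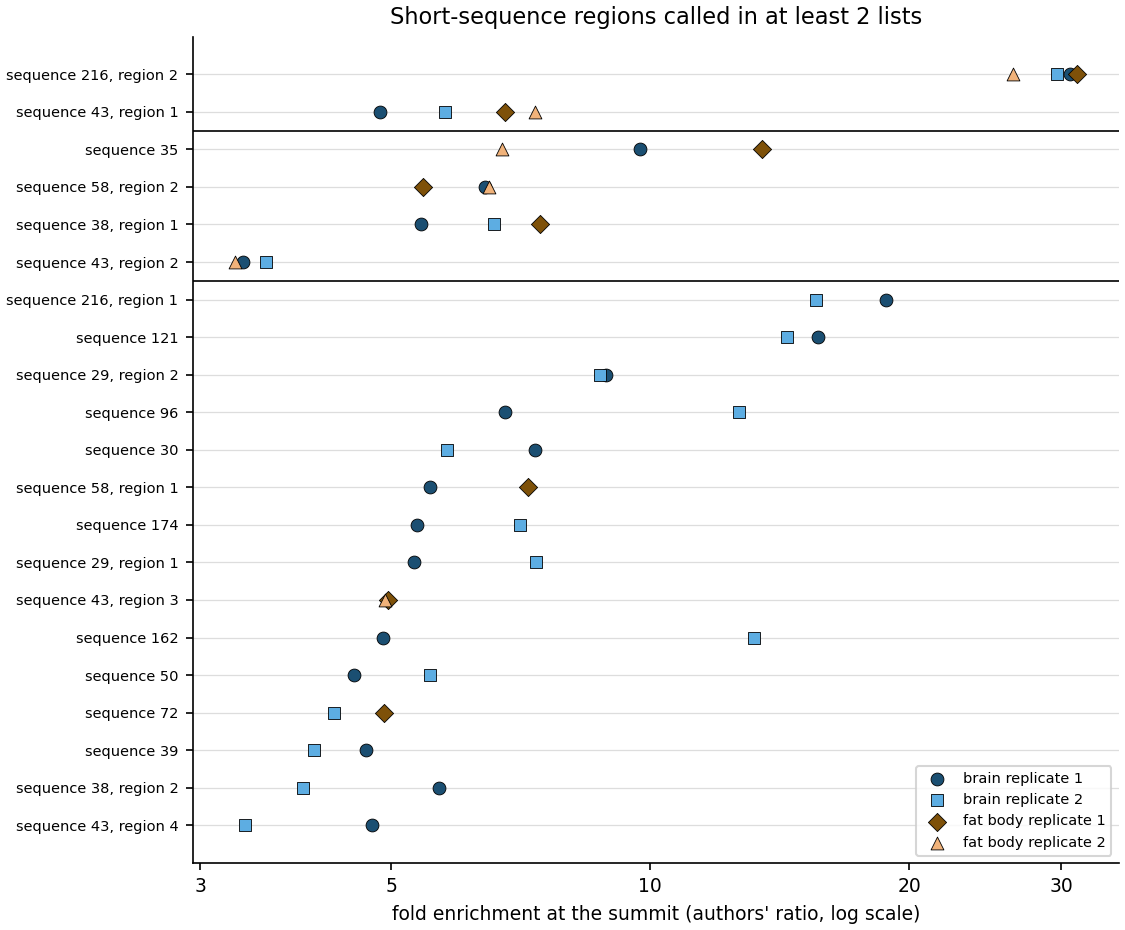
Fold enrichment (log axis) in each list for the 21 short-sequence regions called in at least 2 lists, 1 row per region and 1 marker per list. Horizontal lines part regions called in 4, 3 and 2 lists, and regions of 1 sequence are numbered by position. The upper row, on sequence 216, lies between 26.4 and 31.3 in all 4 lists, far to the right of most rows.

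In 8 of the 21 regions all summits lay within 50 bp of each other, the median distance between the outermost summits was 102 bp and the greatest was 561 bp. Neighbouring peaks on 1 short sequence of brain replicate 2 had a median gap of 6912 bp, against 8939 bp on long sequences, and 22 of 234 gaps (9.40%) were under 1 kb, against 5.91%. A gap cannot exceed the span of its sequence, which had a median of 15.5 kb on short sequences. The 83 short sequences with 1 peak of this list give no gap. Long gaps are thus cut off on short sequences, so these values cannot show whether peaks lie closer together there. Fat body peaks on short sequences were too few for such a comparison, with 5 and 2 gaps.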

How the data were processed

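CUT&Tag peak lists of 4 libraries were analysed, 1 list per library with no pooling of replicates. The tools named, per the submitters' processing notes, are MACS2 2.1.0, deepTools 3.3.0, Bowtie2, Picard and Trim Galore, without order or settings. The build was not given in the sources used here. The deposited columns hold a score (10 times −log10 q), the fold enrichment (a ratio to local background), −log10 p and −log10 q. All are the authors' values, and folds were tested within a list only; folds of different lists, each over its own background, are set side by side as a description, and ranked for naming. Sequencing depth is unknown.

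Pileup and background were solved from the authors' fold, taken as (pileup + 1)/(background + 1), and p, taken as the Poisson upper tail. Every p came back within a relative 0.0001. Steps were tested on simulated data. Overlap needed 1 bp. Tests were exact permutations over libraries (Python 3.11.15, scipy 1.17.1). Deciles of fold were taken over each whole list.

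Named regions were those called in all 4 lists, the 5 with the highest smaller fold in 1 tissue alone, and per list the 5 sequences with most peaks (ties by number), the 3 highest folds and the 2 widest peaks. Regions called in 3 lists, and the peaks on sequences 189 and 123 set apart from brain replicate 2, were described after their values were seen. The members and rules were chosen with earlier results of these data known. Alternatives are under the closing section.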

Additional observations from a re-analysis of the deposited data

How the results depend on the processing

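Depth limits which peaks reach a list, and 14 and 6 fat body peaks are too few for shares or medians to be firm. With −log10 q of at least 20, peaks on short sequences numbered 12, 7 and 3 in brain replicate 1 and fat body replicates 1 and 2, the sequences hit were 10 in brain replicate 1 and 2 in fat body replicate 2, median widths in fat body were 423 and 511 bp and covered shares there 0.976% and 1.71%. Both brain lists and no fat body list then called 3 regions. The mean width difference turned to -44 bp, to -33.1 bp at equal list lengths, to -52.4 bp within the same decile of fold, and the mean fold difference to -0.0202 with the raised background, an alternative chosen after the data were seen. The mean fold difference was 3.93 with −log10 q of at least 20 and 5.30 at equal list lengths.

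Equal list lengths (5894 peaks with the highest −log10 q in each) left 127 peaks on 88 sequences in brain replicate 2, 2.15% of its list, with a median width of 921 bp. In fat body replicate 1 the width was 427.5 bp and the covered share 0.764%. At these lengths 1 region was called in all 4 lists and 0 in both brain lists alone. With the span from the same list, covered shares in fat body were 1.74% and 2.28%. Without its sequence with most peaks, fat body replicate 2 had 0.0509% of its list on short sequences.

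With 1 library left out, the brain minus fat body share ranged from 0.444 to 1.04 points, the mean fold difference from 0.416 to 2.76 and the mean width difference from -50.2 (without brain replicate 2) to 60.3 bp. Shares overlapped by any other list ranged from 17.9% (without brain replicate 2) to 48.7% in brain replicate 1, from 1.51% (without brain replicate 1) to 4.53% in brain replicate 2, were 50% in fat body replicate 1 whichever list was left out, and ranged from 83.3% to 100% in fat body replicate 2. These shares were 23.3% and 0.787% in brain replicates 1 and 2 at equal list lengths, and 58.3% and 2.17% with −log10 q of at least 20. Regions in all remaining lists ranged from 2 to 4 (without brain replicate 2), brain-only regions from 13 to 391 (without brain replicate 1; 32 without brain replicate 2) and fat-body-only regions from 1 to 7 (without fat body replicate 2; 3 without brain replicate 1), as fewer lists are then needed. With replicate number as a block the share difference was 0.741 points (exact sign-flip permutation p = 0.5, the smallest 2 pairs allow). Deviations of same-numbered libraries correlated at 0.405 over 198 sequences and at -0.128 over the 169 short ones, and nothing in the labels says that the numbers pair. Of all alternative values, 90 kept their direction (tested values) or stayed within 1 SD between replicates or 1.5 times (values and counts), 28 moved by more and 5 reversed; 1 SD is a wide limit for overlap in brain, whose replicates had 48.7% and 4.53%.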
